A study of Homo sapiens with 12 samples.

Results

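The BCL2 family of apoptosis regulators was followed here through 10 genes chosen by name, BCL2L1, MCL1, BAX, BAK1, BBC3, PMAIP1, BCL2L11, BID, BAD and BIK. All 10 had a row among the 58233 genes of the table of counts, and all 10 were among the 16657 genes with enough counts to be tested. The cells were HCT116, a human colorectal carcinoma line, carrying Tet-OsTIR1, a rice F-box protein that doxycycline (Dox) induces and that, with the plant auxin indole-3-acetic acid (IAA), directs proteins with an auxin-inducible degron to the proteasome. The parental line carries Tet-OsTIR1 alone. In the SDS22-degron line, both alleles of PPP1R7, which encodes the protein phosphatase-1 regulator SDS22, were extended with the degron and the fluorescent protein mClover, and the line grew from selected colonies, so the line and its clonal history cannot be told apart. The genotype field of the labels calls these libraries SDS22 WT, and their description field calls them degron. Treatment lasted 48 h and combined Dox at 2 µg/ml with IAA at 500 µM, and each line was sequenced with and without it, with 3 libraries in each of the 4 groups and 12 in all. Both agents were given to both lines, so the parental line carries the effect of Dox, IAA and OsTIR1 without the degron.

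Proteins of this family decide whether the outer mitochondrial membrane stays intact. BAX and BAK1, the effectors, can assemble into pores that release cytochrome c and lead to caspase activation. BCL-XL (from BCL2L1) and MCL1 hold the effectors in check, and the BH3-only proteins, named for the single short motif they share with the rest, bind the anti-apoptotic proteins, the effectors or both. PUMA (BBC3), NOXA (PMAIP1), BIM (BCL2L11), BID, BAD and BIK are BH3-only proteins that respond to different stresses, and several of them are controlled mostly through their transcription. The counts below are of transcripts, so they say nothing of the cleavage, phosphorylation or turnover by which many of these proteins are also controlled.

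Total counts per library lay between 12133915 and 14657508, with a median of 12662965, and a log2 difference of 2 groups had a standard error of 0.11 at the median gene. The p-values set each difference against the spread between replicate libraries, estimated over all 4 groups. The labels call the replicates biological and do not say whether they were separate cultures on separate days, so what that spread covers is not known. PPP1R7 itself stood between 40.1 and 51.2 counts per 1000000 counts of the library (CPM) in the 12 libraries and passed the test in none of the 5 comparisons, and since the degron acts on the protein, its transcript does not check the depletion. Among 7 markers of colon epithelium, EPCAM, KRT8, KRT18, KRT19 and CDH1 were present in every library, VIL1 did not exceed 0.153 CPM, and CDX1 had 0 counts in all 12. Of the fibroblast markers COL1A1 stood at 9.88 to 31.7 CPM while COL1A2, DCN and LUM had 0 counts in every library. PDGFRB did not exceed 0.235 CPM, and no leukocyte marker exceeded 0.365 CPM. Of the endothelial markers VWF stood at 0.237 to 1.65 CPM, and PECAM1, CDH5 and KDR did not exceed 0.305 CPM. In cultures sequenced in bulk, fewer cells with a transcript and less of it per cell cannot be told apart. Whether cells that had come off the dish were harvested with the rest is not given in the sources used here.

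BBC3 and BCL2L11 were the members whose response to Dox/IAA differed between the lines, and their promoters are shown for that reason. RefSeq (GRCh38.p14) gave a promoter window, from 250 bases before a start site to 50 bases after it, for 8 of the 10 genes. MCL1 and BIK had no entry. Capitals mark matches to CCAAT, read on either strand and so also as ATTGG, and to the FOXO motif GTAAACA. The BBC3 window is chr19:47232618-47232917 on the minus strand and the BCL2L11 window is chr2:111120664-111120963 on the plus strand.
BBC3: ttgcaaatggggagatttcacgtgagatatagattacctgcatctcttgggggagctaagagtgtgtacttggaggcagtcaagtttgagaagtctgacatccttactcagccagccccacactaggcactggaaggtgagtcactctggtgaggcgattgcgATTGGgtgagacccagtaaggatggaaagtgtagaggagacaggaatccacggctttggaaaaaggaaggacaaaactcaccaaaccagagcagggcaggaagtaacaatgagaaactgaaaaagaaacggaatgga
BCL2L11: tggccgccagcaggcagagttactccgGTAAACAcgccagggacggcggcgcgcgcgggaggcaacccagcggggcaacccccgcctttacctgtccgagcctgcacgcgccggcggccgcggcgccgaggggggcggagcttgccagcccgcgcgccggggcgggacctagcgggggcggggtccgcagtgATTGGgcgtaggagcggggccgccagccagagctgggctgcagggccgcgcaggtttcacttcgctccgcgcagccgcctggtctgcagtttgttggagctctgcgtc
The search covered 4 motifs on both strands, GTAAACA, TTTNGCGC for E2F factors, CCAAT and TATAAA. The BBC3 window held 1 match, CCAAT at -87 from the start site. The BCL2L11 window held GTAAACA at -223 and CCAAT at -58, which do not overlap. Over all 35114 promoter windows of this length, CCAAT was found in 34.6%, TATAAA in 11.5%, GTAAACA in 3.42% and TTTNGCGC in 1.79%, so a CCAAT match was common and a GTAAACA match was not. The pair differed in composition, with 5 CpG and 48% GC in BBC3 and 39 CpG and 74.7% GC in BCL2L11, against medians of 14 CpG and 58.7% over all windows. The table lists 6 transcripts of BBC3 and 25 of BCL2L11, and counts per gene do not show which start site was used. The search took in 14 windows of the 8 genes, of which those of BBC3 and BCL2L11 are described here. Whether any factor binds at these matches was not tested.

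Per kilobase of gene length, the anti-apoptotic transcripts were the most abundant members in all groups. BCL2L1 stood at 122.5 ± 13.3 CPM per kb (SD, n = 3) in untreated parental cells and MCL1 at 54.9 ± 3.67, followed by PMAIP1 at 28.9 ± 3.89 and BAX at 22.9 ± 1.46. BIK, BAD, BID and BBC3 came next, between 16.98 and 11.4 CPM per kb, and BAK1 (5.87) and BCL2L11 (4.49) were lowest. The libraries of neighbours in this order did not overlap except for BIK and BAD. BCL2L1 and MCL1 kept the first and the second place in the other 3 groups, where neighbours overlapped more often, for example BAX and PMAIP1 in treated parental cells and BID, BBC3 and BIK in untreated SDS22-degron cells. BBC3 ranked 8 in both parental groups, 7 in untreated and 4 in treated SDS22-degron cells, where its 36.4 ± 5.75 CPM per kb overlapped BAX at 39.3 ± 2.94 and lay above all other BH3-only transcripts.

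**Figure D1:**
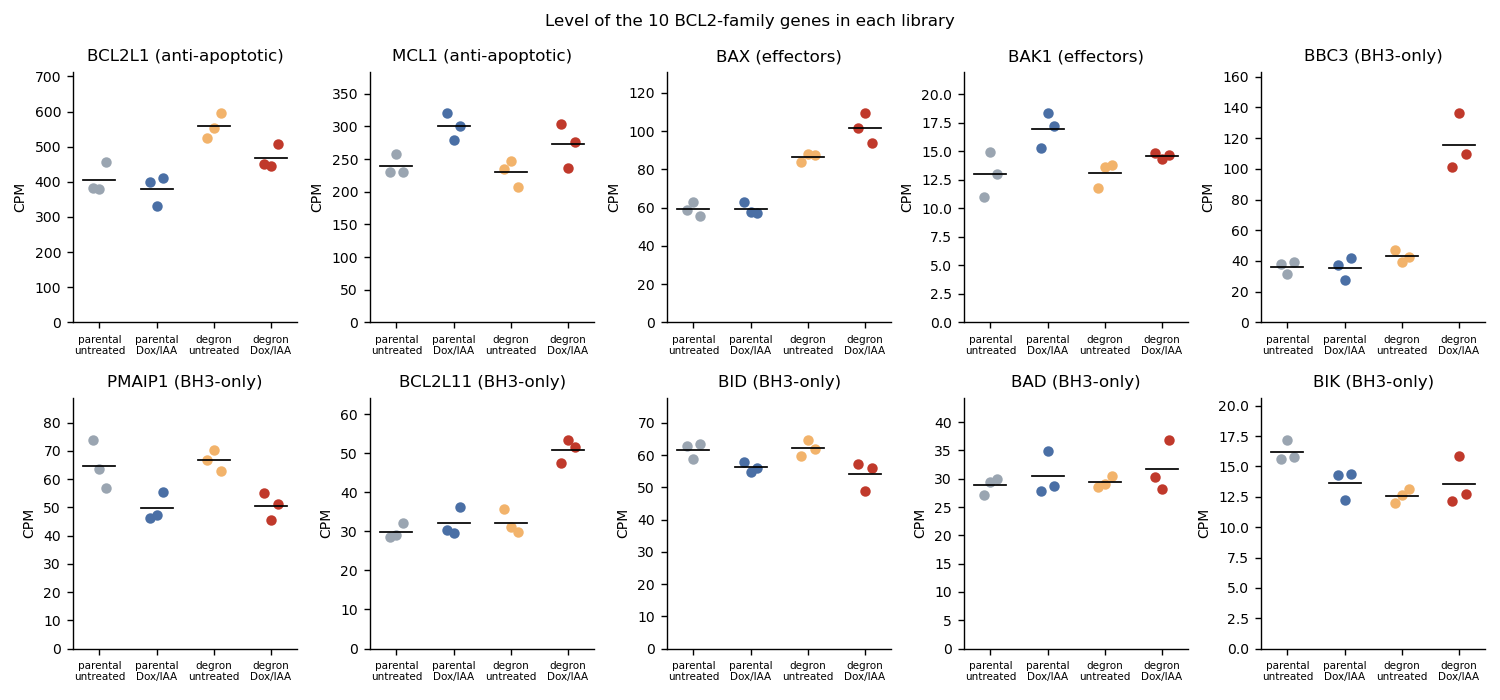
Level of each of the 10 genes in every library, in CPM on a linear axis that starts at 0, with 3 points per group and a line at the group mean. BBC3 in treated SDS22-degron cells (100.9 to 136.1 CPM) and BCL2L11 there (47.4 to 53.4 CPM) stand above all 9 other libraries, while BAX and BCL2L1 are already higher in untreated SDS22-degron cells than in untreated parental cells.

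Among the BH3-only members, BBC3 responded most. Untreated parental libraries held 37.9, 31.3 and 39.2 CPM and treated parental libraries 37.3, 27.8 and 41.9 CPM. Untreated SDS22-degron libraries held 47.2, 39.5 and 42.4 CPM, and treated ones 100.9, 136.1 and 109.8 CPM. The 3 treated SDS22-degron libraries were thus the highest of the 12, with a gap of more than the whole range of the other 9, and the parental groups overlapped. BBC3 rose 2.69-fold on Dox/IAA in SDS22-degron cells (log2 fold change 1.43 ± 0.13 SE, adjusted p = 5.89e-08, edgeR quasi-likelihood test with Benjamini-Hochberg adjustment over all tested genes). In parental cells its log2 fold change was -0.02 (95% interval -0.30 to 0.27, adjusted p = 0.94). The interaction, which is the effect of Dox/IAA in SDS22-degron cells minus that in parental cells, was 1.44 ± 0.19 (adjusted p = 7.6e-05), and only 190 of the 16657 genes had a larger rise in SDS22-degron cells.

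BCL2L11, which encodes BIM, a BH3-only protein that binds all the main anti-apoptotic members, was likewise highest in treated SDS22-degron cells, with a smaller change. Its levels were 28.5, 29.2 and 32.1 CPM in untreated and 30.4, 29.6 and 36.2 CPM in treated parental cells. In SDS22-degron cells they were 35.7, 31.1 and 29.9 CPM without and 47.4, 53.4 and 51.6 CPM with Dox/IAA. Treated SDS22-degron libraries again lay above all 9 others, which overlapped each other. BCL2L11 rose 1.58-fold in SDS22-degron cells (log2 fold change 0.66 ± 0.09 SE, edgeR adjusted p = 1.05e-05), against 1.07-fold with an interval that includes no change in parental cells (0.10, -0.10 to 0.30). The interaction was 0.56 ± 0.13 (adjusted p = 0.00878).

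Other features of the libraries also differed between the groups. All 10 proliferation markers fell in SDS22-degron cells on Dox/IAA and in the interaction, and their summed level was 919 to 1090 CPM in treated SDS22-degron libraries against 1800 to 2720 CPM in the other 9. The share of counts on mitochondrially encoded genes was 5.26 to 7.09% in treated and 4.65 to 5.26% in untreated SDS22-degron libraries. In parental libraries it was 3.8 to 4.56% with and 3.11 to 3.45% without Dox/IAA, so treated libraries were higher there too. The part of the proliferation markers or of the mitochondrial share in the levels of BBC3 and BCL2L11 was not tested.

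PMAIP1, which encodes NOXA, a BH3-only protein that binds MCL1, fell in both lines. It stood at 73.95, 63.4 and 56.7 CPM in untreated and 46.2, 47.4 and 55.3 CPM in treated parental cells. SDS22-degron libraries held 66.6, 70.2 and 63.0 CPM without and 55.1, 45.5 and 51.2 CPM with Dox/IAA. In neither line did treated and untreated libraries overlap. The log2 fold change was -0.40 ± 0.10 (SE) in SDS22-degron cells (edgeR adjusted p = 0.00231) and -0.38 ± 0.10 in parental cells (adjusted p = 0.00635), and the interaction was -0.02 with a 95% interval of -0.31 to 0.28. The highest PMAIP1 library, untreated parental replicate 1, also stood apart in DDIT3, a stress-induced transcription factor singled out after its values were seen, with 207 CPM against 11.1 to 28.4 CPM in the other 11. Without that library PMAIP1 still fell in parental cells, with a log2 fold change of -0.28 (adjusted p = 0.0386).

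The remaining BH3-only genes had smaller differences. BID, which caspase-8 cleaves to link death receptors to mitochondria, stood at 58.8 to 63.4 and 54.8 to 57.8 CPM in untreated and treated parental cells and at 59.6 to 64.8 and 48.8 to 57.2 CPM in the SDS22-degron groups. Its fall of 13% in SDS22-degron cells passed the threshold (log2 fold change -0.20 ± 0.07 SE, edgeR adjusted p = 0.0273), while the parental value of -0.13 did not (adjusted p = 0.176), and the interaction was -0.07 (-0.28 to 0.15). The BID call was lost without SDS22-degron untreated replicate 2 or 3 (adjusted p = 0.112 and 0.0534) or Dox/IAA replicate 2 (adjusted p = 0.153). BAD, which growth factor signalling inactivates by phosphorylation, ranged from 27.2 to 36.9 CPM over all libraries and passed the test in no comparison, with log2 fold changes from 0.03 to 0.11. BIK, the least counted member, stood at 15.6, 17.2 and 15.7 CPM in untreated parental and 11.96, 12.7 and 13.1 CPM in untreated SDS22-degron cells. BIK was thus lower in the untreated SDS22-degron line (log2 fold change -0.36 ± 0.11 SE, adjusted p = 0.0228), without overlap, and 12.1 to 15.9 against 12.3 to 14.4 CPM after treatment of the lines, where the difference was -0.01 (-0.25 to 0.24). That call was lost without parental untreated replicate 2 (adjusted p = 0.102) or SDS22-degron untreated replicate 1 or 2 (adjusted p = 0.0847 and 0.0608), and the BIK interaction of 0.36 did not pass the threshold (adjusted p = 0.155).

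**Figure D2:**
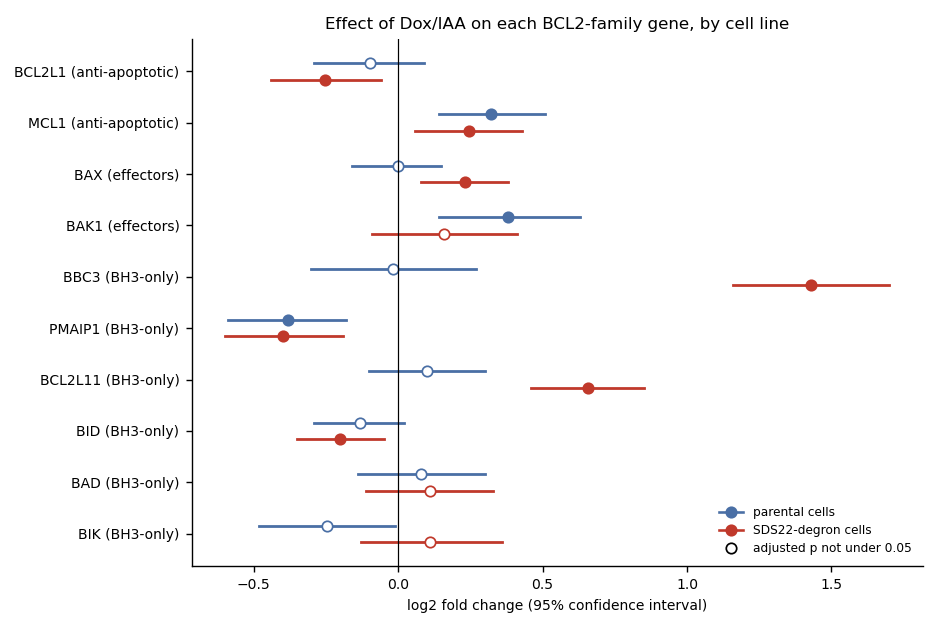
Log2 fold change of Dox/IAA-treated against untreated cells for each gene, in parental (blue) and SDS22-degron cells (red). Lines are 95% confidence intervals and filled points have an adjusted p under 0.05. The intervals of the lines lie apart for BBC3 (1.16 to 1.70 against -0.30 to 0.27) and BCL2L11 (0.46 to 0.85 against -0.10 to 0.30), and PMAIP1 lies below 0 in both.

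Both effectors were transcribed in all groups, and BAX was the one that distinguished the lines. BAX stood at 58.8, 63.1 and 55.5 CPM in untreated and 62.7, 57.5 and 57.0 CPM in treated parental cells. It was higher in SDS22-degron cells before any treatment, at 83.7, 87.9 and 87.7 CPM, and stood at 101.5, 109.2 and 94.0 CPM after Dox/IAA. The lines did not overlap with or without treatment. The difference between lines was 1.46-fold without (log2 fold change 0.55 ± 0.07 SE, edgeR adjusted p = 2.21e-05) and 1.72-fold with Dox/IAA (0.78 ± 0.07, adjusted p = 1.32e-07). Within SDS22-degron cells BAX rose by 17.5% (0.23 ± 0.07, adjusted p = 0.0105), and its interaction of 0.24 did not pass the threshold after adjustment (95% interval 0.02 to 0.45, adjusted p = 0.139). The rise within SDS22-degron cells was lost without Dox/IAA replicate 2 (adjusted p = 0.065) and with a correction for GC content (adjusted p = 0.0729).

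BAK1, which sits in the outer mitochondrial membrane of healthy cells, was counted at a lower level, 10.97 to 18.3 CPM over the 12 libraries. Treated parental libraries held 15.3, 18.3 and 17.2 CPM against 10.97, 14.93 and 13.02 CPM in untreated ones, a rise of 0.38 ± 0.12 on the log2 scale (edgeR adjusted p = 0.0186). In SDS22-degron cells 14.9, 14.3 and 14.7 CPM stood against 11.8, 13.6 and 13.8 CPM, a difference of 0.16 that did not pass the test (-0.09 to 0.41, adjusted p = 0.268), and the interaction was -0.22 (adjusted p = 0.414). The parental call was lost without untreated replicate 1 (adjusted p = 0.111) or Dox/IAA replicate 2 or 3 (adjusted p = 0.0616 and 0.0555). A pseudogene, BAK1P1, took 839 counts beside the 2234 of BAK1, and how reads were divided between the pair could move the BAK1 value.

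BCL2L1, the source of BCL-XL, behaved like BAX in the untreated lines. Untreated parental libraries held 382.5, 378.8 and 457 CPM and untreated SDS22-degron libraries 525.6, 553.4 and 594.8 CPM. After Dox/IAA the values were 398.7, 330.6 and 409.7 CPM in parental and 451.5, 446.3 and 507.9 CPM in SDS22-degron cells. SDS22-degron libraries were above parental ones in both pairs of groups, by 1.37-fold without (log2 fold change 0.46 ± 0.09 SE, edgeR adjusted p = 0.000854) and 1.23-fold with treatment (0.30 ± 0.09, adjusted p = 0.0102; adjusted p = 0.0599 without SDS22-degron Dox/IAA replicate 3). Within SDS22-degron cells BCL2L1 fell by 16% on Dox/IAA (-0.25 ± 0.09, adjusted p = 0.0253), a call that was lost without SDS22-degron untreated replicate 2 or 3 (adjusted p = 0.0533 and 0.107) or Dox/IAA replicate 1 or 2 (adjusted p = 0.0644 and 0.0895). The parental value was -0.10 (adjusted p = 0.445) and the interaction -0.16 (-0.42 to 0.11), so a difference in response between the lines was not detectable.

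MCL1, a short-lived protein that inhibits BAK1 and BAX, rose in both lines. Parental libraries held 230.3, 258.5 and 231.0 CPM without and 319.9, 279.3 and 301.3 CPM with Dox/IAA, with no overlap. SDS22-degron libraries held 234.5, 247.3 and 207.6 CPM without and 304.4, 237.0 and 275.7 CPM with Dox/IAA, and here 1 treated library lay among the untreated ones. The log2 fold changes were 0.32 ± 0.09 (SE, edgeR adjusted p = 0.00947) in parental and 0.25 ± 0.09 (adjusted p = 0.0269) in SDS22-degron cells, with an interaction of -0.08 (-0.34 to 0.18). The MCL1 call in SDS22-degron cells was lost without untreated replicate 1 or 3 (adjusted p = 0.0511 and 0.145) or Dox/IAA replicate 1 or 3 (adjusted p = 0.195 and 0.083). Between the lines MCL1 differed by -0.06 without and -0.14 with treatment, and neither difference passed the test.

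**Figure D3:**
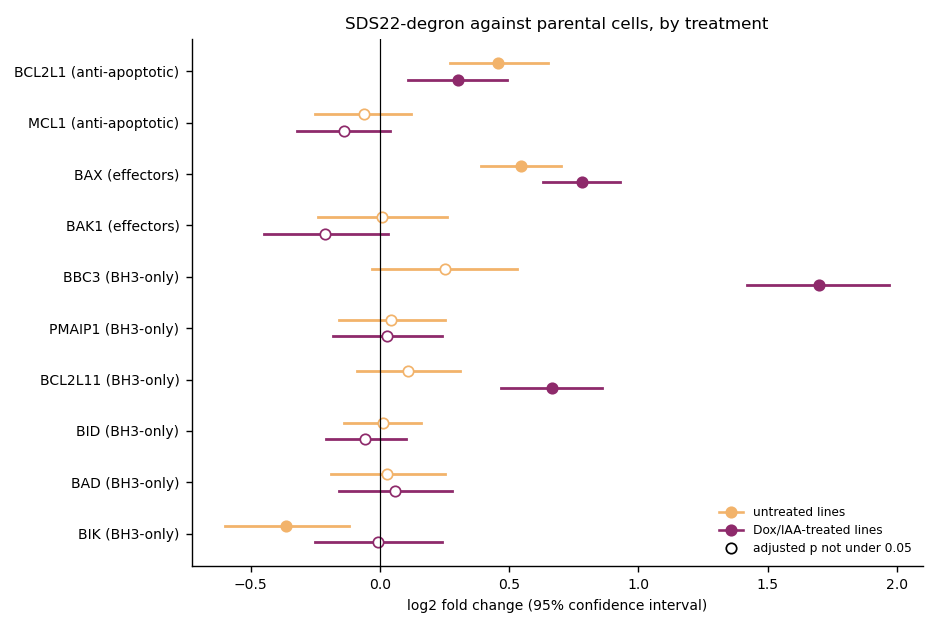
Log2 fold change of SDS22-degron against parental cells for each gene, untreated (orange) and treated with Dox/IAA (purple). Lines are 95% confidence intervals and filled points have an adjusted p under 0.05. BAX and BCL2L1 lie above 0 in both, BIK lies below 0 only in its untreated interval, and BBC3 and BCL2L11 pass the threshold only between treated lines.

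Counted over the family, 4 of the 10 members were called higher and 0 lower between the treated lines, where 21.8% of all tested genes were called higher and 23.1% lower. Between untreated lines 2 were higher and 1 was lower, against 13.2% and 15% of all tested genes. Dox/IAA in SDS22-degron cells moved 4 members up and 3 down, and the background was 26.0% and 25.5%. Those 7 calls became 4 without SDS22-degron untreated replicate 3 or Dox/IAA replicate 2. In parental cells it moved 2 up and 1 down, against 15.9% and 15.7%. For the interaction 2 members were called higher and 0 lower, where 6.03% of all genes were higher and 8.35% lower. Members whose libraries did not overlap between groups numbered 5, 4, 7 and 5 of 10 in the first 4 of these comparisons, and the background was 52.9%, 43.5%, 59.9% and 41.3%, so these shares were near those of all genes. BBC3 was the single member past the study's own limits of an unadjusted p under 0.05 and a log2 fold change above 1. It met them between treated lines, within SDS22-degron cells and in the interaction. On the higher side 3.25%, 3.82% and 1.15% of all tested genes met them. The limits were applied here to p-values of the quasi-likelihood test, while the study took its own from a likelihood ratio test. These comparisons share groups with one another, so their counts are not independent. The family's median log2 fold change within SDS22-degron cells was 0.14 against 0.00 over all tested genes. Its median absolute change there was 0.24 against 0.32. The family's median was 0.04 between treated lines, 0.03 between untreated lines, -0.01 in parental cells and 0.01 in the interaction.

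The make-up of the BH3-only transcripts changed with BBC3. Summed per kilobase, the 6 BH3-only genes stood at 92.5 ± 2.75 CPM per kb (SD, n = 3) in untreated parental, 83.0 ± 4.22 in treated parental, 92.5 ± 0.911 in untreated SDS22-degron and 112 ± 4.37 in treated SDS22-degron cells. BBC3 made up 12.3%, 13.4% and 14.6% of that sum in the first 3 groups and 32.5 ± 4.04% in treated SDS22-degron cells, where its lowest library was at 29.7%. The sum over the anti-apoptotic pair was 177, 183, 221 and 204 CPM per kb in the same order. The ratio of BH3-only to anti-apoptotic transcripts was 0.523 ± 0.0465, 0.455 ± 0.0345, 0.419 ± 0.017 and 0.55 ± 0.052. Treated SDS22-degron libraries (0.519 to 0.61) stood above untreated ones of the same line and above treated parental ones (0.42 to 0.489). They overlapped untreated parental libraries (0.476 to 0.569). A ratio of transcripts says nothing of the ratio of the proteins.

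**Figure D4:**
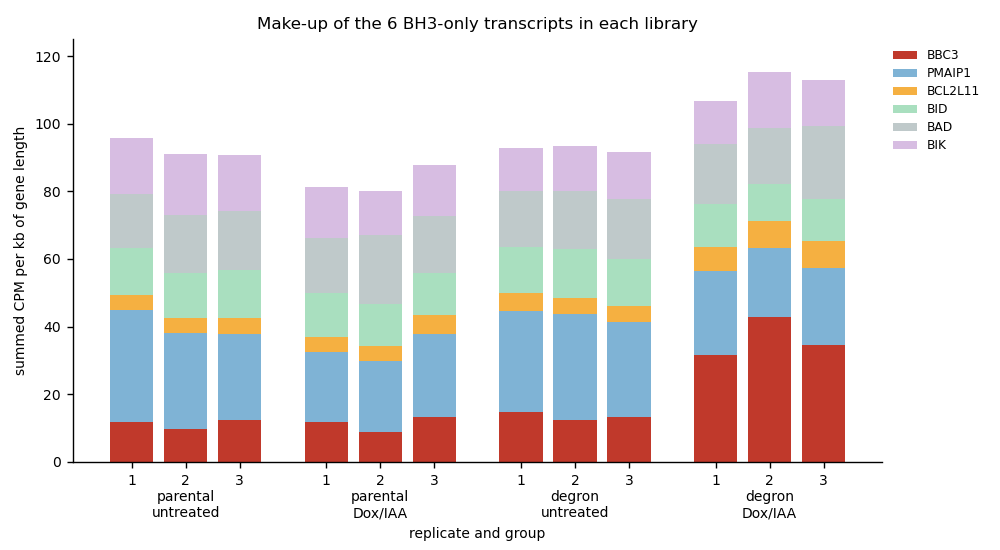
Stacked CPM per kb of gene length of the 6 BH3-only genes in each of the 12 libraries, on an axis that starts at 0. BBC3 (red, bottom) takes 29.7 to 37.1% of the stack in treated SDS22-degron libraries and at most 16% in the others, and the stack reaches 107 to 115 CPM per kb there against at most 95.7.

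By the Pearson correlation of log2 CPM over the 12 libraries, the genes most like BBC3 were TSTD2 (r = 0.977), PLXNB2 (0.975) and ANXA4 (0.973), and those most like BCL2L11 were ZMIZ1 (0.969), BBC3 (0.967) and HPS1 (0.967). These libraries fall in 4 groups and share their depth and preparation, so the values describe the group pattern and not its size. The interactions of TSTD2, PLXNB2 and ANXA4 were 0.52, 0.51 and 0.46, against 1.44 for BBC3. Those of ZMIZ1 and HPS1 were 0.36 and 0.42, against 0.56 for BCL2L11. Among the members, BAX also followed BBC3 (0.81), and PMAIP1 followed BID (0.78) and ran against BAK1 (-0.68).

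Of 13 other genes of the family, 10 had enough counts to be tested. BCL2A1, BCL2L10 and BCL2L14 did not. In the interaction HRK was higher and BCL2 and BCL2L12 were lower, and the other 7 were not called, against 6.03% higher and 8.35% lower among all tested genes. BCL2, the anti-apoptotic gene for which the family is named, was counted at 8.20 to 9.19 CPM in untreated SDS22-degron cells and 3.89 to 5.11 after Dox/IAA, without overlap, and at 4.64 to 6.87 CPM in parental libraries. It fell by 1.02 ± 0.16 (SE) on the log2 scale in SDS22-degron cells (edgeR adjusted p = 3.07e-05), with an interaction of -1.07 ± 0.23 (adjusted p = 0.00407). The fall started from a higher level, since BCL2 was above parental cells in the untreated SDS22-degron line (0.71, adjusted p = 0.00192). Between treated lines BCL2 was not called (-0.36, adjusted p = 0.0922). BCL2L12 fell by 0.50 in SDS22-degron cells, with an interaction of -0.62 (adjusted p = 0.00962). BCL2L2, the source of BCL-W, fell by 0.37 in SDS22-degron cells (adjusted p = 0.000768), and its interaction of -0.32 was not called (adjusted p = 0.0629). The BCL2L2 interaction passed in 6 of 22 alternatives, with an adjusted p of 0.0428 without parental untreated replicate 1, 0.0402 without SDS22-degron Dox/IAA replicate 1, and 0.0156 to 0.0433 with library size only, a replicate block, a GC correction or the last pair together.

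HRK and BMF are further BH3-only genes, at low counts. Without treatment both were called higher in SDS22-degron than in parental cells (log2 fold changes 0.72 and 1.17, edgeR adjusted p = 0.00333 and 0.0426). They were also called higher between treated lines (1.8 and 2.18, adjusted p = 7.28e-07 and 2.99e-06). The alternatives were not run for these differences between lines. HRK had a log2 fold change of -0.01 in SDS22-degron cells (-0.34 to 0.31) and fell in parental cells, from 3.21 to 4.14 CPM down to 1.5 to 1.82 CPM, so its interaction of 1.08 ± 0.26 (edgeR adjusted p = 0.00963) came with a parental fall of 1.09. BMF rose in both lines, from 1.44 to 1.79 CPM up to 4.88 to 9.83 CPM in SDS22-degron cells (log2 fold change 2.28 ± 0.27 SE, adjusted p = 1.17e-06) and from 0.469 to 1.07 CPM up to 1.42 to 2.20 CPM in parental cells (1.27 ± 0.42, adjusted p = 0.0262). The parental BMF call was lost without untreated replicate 1 or 2 (adjusted p = 0.0749 and 0.107) or Dox/IAA replicate 1 or 3 (adjusted p = 0.0501 and 0.103). Its interaction of 1.01 did not pass the threshold (adjusted p = 0.222; 1.26 and adjusted p = 0.0458 without SDS22-degron Dox/IAA replicate 1). BNIP3L, a mitophagy receptor with a BH3-like stretch, rose in both lines too, by 0.88 and 0.44, and its interaction of 0.44 had an adjusted p of 0.0693. It passed in 8 of 22 alternatives, without parental untreated replicate 2 (adjusted p = 0.0394) or SDS22-degron untreated replicate 1 (adjusted p = 0.0427), and at 0.00899 to 0.0484 with a likelihood ratio test, no filter, DESeq2, a replicate block, a GC correction or the last pair together. BCL2L13 rose by 0.20 in SDS22-degron cells (adjusted p = 0.0175), a call lost without untreated replicate 1 or 2 or Dox/IAA replicate 1 or 3 (adjusted p = 0.0529 to 0.082) and without a filter on low counts (adjusted p = 0.0583). BOK, BCL2L15 and BNIP3 were called in neither line.

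Among 11 known regulators of the members, 3 were higher and 2 lower in the interaction, where 6.03% of all tested genes were higher and 8.35% lower. E2F1, a transcription factor of S-phase genes that can also induce BH3-only genes, stood at 59.6 to 62.6 CPM in untreated SDS22-degron cells and 18.6 to 32.8 CPM after Dox/IAA, against 54.2 to 55.5 CPM in the 6 parental libraries. Its interaction was -1.20 ± 0.17 (SE, edgeR adjusted p = 0.000171). TP73, a transcription factor that can induce BBC3, rose in parental cells (0.51, adjusted p = 2.81e-05), and its interaction was -0.68 ± 0.10 (adjusted p = 0.000171). In SDS22-degron cells its value was -0.17, with an adjusted p of 0.0485 that exceeded 0.05 in 15 of 23 alternatives, among them the loss of each library other than parental untreated replicate 1 or 2, parental Dox/IAA replicate 1 or SDS22-degron Dox/IAA replicate 1. FOXO1, a transcription factor that growth factor signalling keeps out of the nucleus and that can induce BCL2L11, rose from 18.3 to 23.04 up to 26.1 to 27.99 CPM in SDS22-degron cells, with an interaction of 0.52 ± 0.13 (adjusted p = 0.0117). FOXO3 (0.39, adjusted p = 0.0231) and MARCHF5, a ubiquitin ligase of the outer mitochondrial membrane (0.37, adjusted p = 0.0162), were the other 2 called higher, and they are named here after their values were seen. The FOXO3 call was lost without parental untreated replicate 1 or 3, parental Dox/IAA replicate 1, SDS22-degron untreated replicate 1 or SDS22-degron Dox/IAA replicate 3 (adjusted p = 0.052 to 0.0807).

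In the death receptor branch that meets BID, 1 of 9 genes was called higher in the interaction and 0 lower, against 6.03% and 8.35% of all tested genes, a share near the background. TNFRSF10B, which encodes the TRAIL receptor DR5, stood at 261.8 to 272.3 CPM in untreated and 432.2 to 438.0 CPM in treated SDS22-degron cells, with parental libraries at 215.2 to 269.6 CPM. It rose 1.62-fold in SDS22-degron cells (log2 fold change 0.70 ± 0.07 SE, edgeR adjusted p = 1.63e-07), with an interaction of 0.55 ± 0.10 (adjusted p = 0.000946). CASP10, an initiator caspase, rose in SDS22-degron cells (1.26 ± 0.19, adjusted p = 1.87e-05), and its interaction of 0.80 did not pass the threshold (adjusted p = 0.0555). The CASP10 interaction passed in 5 of 22 alternatives, without parental Dox/IAA replicate 3 (adjusted p = 0.0358) and at 0.0268 to 0.0351 with a likelihood ratio test, no filter or a replicate block with or without a GC correction. FAS, another death receptor, had an interaction of 0.55 (adjusted p = 0.0713). It passed in 6 of 22 alternatives, without parental Dox/IAA replicate 2 (adjusted p = 0.0255) or SDS22-degron Dox/IAA replicate 1 (adjusted p = 0.0444), and at 0.00881 to 0.0485 with the same 4 other settings as CASP10.

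Downstream of the mitochondrial membrane, in a list of 18 genes of the caspase cascade and its surroundings, 0 were called higher and 3 lower in the interaction, against the 6.03% and 8.35% of all genes. DFFA, the inhibitor of the caspase-activated DNase, fell from 120.4 to 127.2 down to 69.2 to 75.9 CPM in SDS22-degron cells and by less in parental cells, with log2 fold changes of -0.75 and -0.30 and an interaction of -0.45 ± 0.09 (SE, edgeR adjusted p = 0.00219). VDAC1 and VDAC3 encode channels of the outer mitochondrial membrane. Their interactions were -0.33 (adjusted p = 0.0143) and -0.39 (adjusted p = 0.0192), and that of VDAC3 was lost without parental untreated replicate 1, parental Dox/IAA replicate 2 or SDS22-degron untreated replicate 2 or 3 (adjusted p = 0.0507, 0.0609, 0.0504 and 0.0517). The proliferation markers with the smallest p were BIRC5, which encodes survivin, an inhibitor of apoptosis protein made mostly in mitosis (-1.32), MKI67 (-1.38) and PLK1 (-1.33). Their fall was seen in 3 of 3 treated SDS22-degron libraries, all below every other library.

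**Figure D5:**
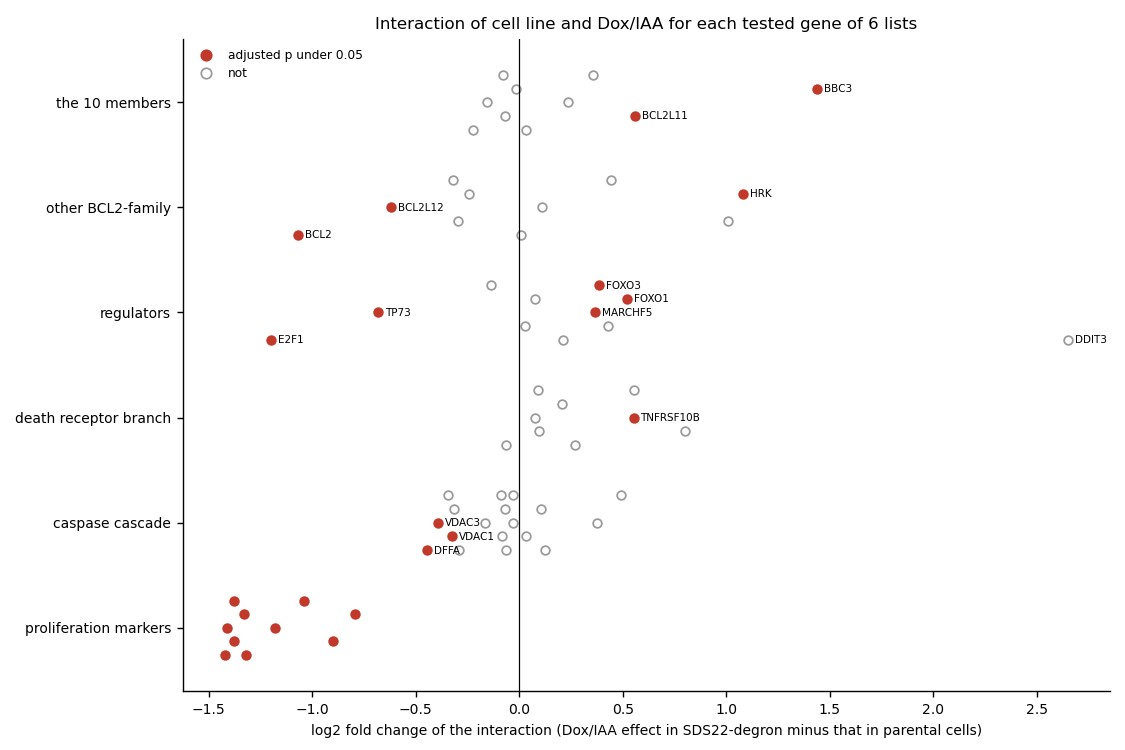
Interaction of cell line and Dox/IAA, as a log2 fold change, for every tested gene of 6 lists, with filled red points where the adjusted p is under 0.05. BBC3 (1.44), HRK (1.08) and TNFRSF10B (0.55) lie to the right, BCL2 (-1.07), E2F1 (-1.20) and all 10 proliferation markers to the left, and DDIT3 (2.65, not called) rests on 1 parental library.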

How the data were processed

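Poly-A selected RNA for 12 samples was sequenced from stranded libraries. The authors deposited raw read counts per gene, not normalized, with the position and length of each gene and its GC content, a percent in the deposited table. The submitters' processing notes name cutadapt 1.15, Bowtie2 2.3.3.1, STAR 2.5.2b, SAMtools 1.5, featureCounts 1.5.3 and the build GRCh38. The strand setting of the counting is not given in the sources used here, and BAD shares its locus with GPR137 on the other strand (4663 and 2485 counts in all). Every column was mapped to a sample through the labels, so 0 were left over.

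Counts were filtered by group with filterByExpr (minimum count 10), normalized with TMM and fitted in R 4.3.3 by the quasi-likelihood test of edgeR 4.0.16, in 1 model of 4 group means over all 12 libraries with 5 contrasts. A gene was called at an adjusted p under 0.05 after Benjamini-Hochberg adjustment over the 16657 tested genes. CPM used TMM library sizes, and CPM per kb divided by the gene length in the table. TMM factors were 0.971 to 1.03. Replicates differed by more than counting noise (chi-square per degree of freedom 2.06 to 9.02). In counts simulated from these libraries, a planted log2 fold change of 1 was found in 89.4% of 199 genes within SDS22-degron cells and in 75.4% in the interaction, with 10 and 9 of the unchanged genes called. Members and lists were chosen with earlier results of these data known. Named were all members, the tested genes of the other family list, the 3 genes of each other list with the smallest interaction p, and the 3 genes most correlated with each member called in the interaction. Alternatives were other scalings, filters and tests (DESeq2 1.42.0 among them), a GC correction, a replicate block and the loss of each library, and they were extended to the genes that are not members after the data were seen. Promoter windows came from RefSeq. In the list of regulators, 1 gene is not reported here.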

Additional observations from a re-analysis of the deposited data

Results flagged for a closer look

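The effect of Dox/IAA on BBC3 differed between the lines by the interaction term, which was 1.44 ± 0.19 on the log2 scale (SE, edgeR adjusted p = 7.6e-05), with an effect of 1.43 in SDS22-degron and -0.02 in parental cells. For BCL2L11 the interaction was 0.558 ± 0.134 (adjusted p = 0.00878), with effects of 0.66 and 0.10. In both genes the 3 treated SDS22-degron libraries were above the other 9.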

How the results depend on the processing

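Over all alternatives, 1063 of 1140 values of the members kept their direction and their side of the threshold, 22 of them fell short of it, 0 newly passed it, and 55 changed sign, all of these being differences that were not called. The calls of BBC3 and BCL2L11 between treated lines, within SDS22-degron cells and in the interaction held in each alternative, with the BBC3 interaction between 1.31 and 1.57 and that of BCL2L11 between 0.50 and 0.65. Of the counts of calls, 339 of 342 stayed within 1.5 times. With 1 library left out at a time, the members called within SDS22-degron cells numbered 4 to 7, with 4 reached without untreated replicate 3 or without Dox/IAA replicate 2. Beside the calls lost with a library that are given above, BID within SDS22-degron cells had an adjusted p of 0.0658 with library size only and 0.0652 without a filter. Of 40 levels 1 moved by more than 1 SD, BAK1 in treated SDS22-degron cells, to 14.9 CPM with library size only.

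Same-numbered libraries correlated at -0.06 to 0.25 in 18 pairs, 7 of them over 0.1, against -0.18 to 0.08 for different numbers, and 11 of 12 libraries correlated best with their own number, so the labels give only a number and the data a hint of pairing. In the interaction of cell line and Dox/IAA, genes called higher numbered 1005 without a replicate block, 1398 with it and 1528 with it and a GC correction, and the number of members called was the same with and without it in all 5 comparisons.

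The members' signs that changed belong to values near 0. For BIK between treated lines (-0.01) they were 0.00287, 0.0257, 0.00336, 0.00336 and 0.00366 with library size, upper quartile, RLE, DESeq2 and only the groups compared. For BAX in parental cells they were 0.0563, 0.0217, 9.68e-05, 0.000981, 7.79e-05 and 0.00171 with library size, upper quartile, RLE, a stricter filter, DESeq2 and only the groups compared, and for BBC3 there 0.0405 and 0.00575 with library size and upper quartile. For BAK1 and BID between untreated lines they were -0.00279 and -0.00113 without a filter, and for the PMAIP1 interaction 0.0121 and 0.00817 with a GC correction without and with the block. For HRK within SDS22-degron cells they were 0.0296, 0.00885, 0.00266 and 0.00244 with library size, upper quartile and the GC correction without and with the block. With 1 library left out, values between treated lines ran from -0.0329 to 0.112 for PMAIP1, -0.0962 to 0.0115 for BID, -0.0629 to 0.182 for BAD and -0.135 to 0.0753 for BIK. Between untreated lines they ran from -0.119 to 0.014 for MCL1, -0.0885 to 0.143 for BAK1, -0.0438 to 0.158 for PMAIP1, -0.0227 to 0.0381 for BID and -0.00574 to 0.0597 for BAD. Within SDS22-degron cells they ran from -0.0256 to 0.192 for BAD, -0.0162 to 0.178 for BIK and -0.1 to 0.0933 for HRK, and in parental cells from -0.0469 to 0.0505 for BAX, -0.149 to 0.135 for BBC3, -0.0248 to 0.143 for BAD and -2.57 to 0.144 for DDIT3, whose fall rests on untreated replicate 1. In the interaction they ran from -0.176 to 0.0129 for MCL1, -0.131 to 0.0712 for PMAIP1, -0.122 to 0.00113 for BID and -0.105 to 0.153 for BAD. Among the other named genes, 822 of 899 values kept direction and side, 37 fell short of the threshold, 32 newly passed it and 8 changed sign.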

Other observations

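DDIT3 stood at 207.2 CPM in untreated parental replicate 1 and at 13.9 and 20.4 CPM in the other replicates of that group. Its log2 fold change on Dox/IAA in parental cells was -2.07 with all libraries and 0.14 without that one. BBC3 was at 37.9 CPM in the same library, within the range of its group. The interactions of BBC3 (1.40, edgeR adjusted p = 0.000369) and BCL2L11 (0.58, adjusted p = 0.0136) were still called without that library. DDIT3 protein is known to induce BBC3, and whether it acts on BBC3 in these cells was not tested.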
